A study of Bos taurus with 8 samples.

Results

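CD14, TLR4 and TLR2 are surface receptors with which blood monocytes sense bacteria. Their transcripts were followed in peripheral blood mononuclear cells (PBMC, the lymphocytes and monocytes of blood) of 2 kinds of cattle before and after heat. The genes were taken by their Ensembl identifiers, ENSBTAG00000015032 for CD14, ENSBTAG00000006240 for TLR4 and ENSBTAG00000008008 for TLR2, which are 3 of the 24596 genes listed in every table. The choice of the genes used no measured value, although earlier results of these data were known when it was made. The groups were Tharparkar cattle, an Indian zebu breed, and crossbred cattle whose parent breeds the labels do not name. Each was sampled at day 0, before heat, and at day 7, after 7 days of it. Every group is 1 pool of RNA from 5 animals, and the labels leave unsaid whether both days used the same animals. The labels give neither the animals' ages nor the strength of the heat, and none of the 4 groups is an unheated control of day 7.

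CD14 is a membrane-anchored protein without a signalling domain of its own. It binds lipopolysaccharide (LPS) of Gram-negative bacteria and hands it to TLR4, which with its partner LY96 starts signalling through the adaptors MYD88 and TICAM1. TLR2 pairs with other Toll-like receptors to sense bacterial lipoproteins and also uses MYD88, and CD14 can pass ligands to it as well. In blood, CD14 is the usual surface marker of classical monocytes. TLR2 and TLR4 are abundant on monocytes too, but neutrophils and dendritic cells also make them. In pooled RNA of a mixed cell population, fewer monocytes and less receptor RNA per monocyte cannot be told apart.

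Each group has 2 files labelled as replicates. Within a group they differed by less than the sampling noise of independent reads: the median chi-square ratio, which is 1 for independent reads of 1 library, lay between 0.0762 and 0.112 in the 4 groups. The 2 files were therefore counted as 1 library, and every group has n = 1. Averaged over their 2 files, the crossbred libraries summed to 8571528 counts (day 0) and 7929406 counts (day 7), and the Tharparkar libraries to 6701373 counts (day 0) and 5201318 counts (day 7). No difference below was tested against the spread between animals. The intervals given are 95% intervals for counting error only, in reads that carry no molecular identifiers.

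All 3 receptors were well detected, and all 3 passed the filter on low counts. Levels are first given in TPM (transcripts per 1000000 transcripts), which are scaled by gene length and so can be compared between genes. CD14 stood at 112.28 and 111.52 TPM in the 2 crossbred files of day 0, and at 121.96 and 123.70 TPM in those of day 7. In Tharparkar it stood at 137.16 and 136.79 TPM at day 0, and at 37.69 and 39.05 TPM at day 7. The Tharparkar day 7 library was low and the other 3 libraries were high; the files of a group are near copies, so their lack of overlap between groups separates nothing. Among genes with a TPM above 0, 5.25% were more abundant than CD14 in Tharparkar at day 0 and 18.6% at day 7.

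TLR4, the signalling receptor for LPS, stood at 88.11 and 89.20 TPM in crossbred at day 0, and at 108.56 and 109.91 TPM at day 7. In Tharparkar it stood at 101.27 and 101.29 TPM at day 0, and at 53.71 and 53.78 TPM at day 7. The Tharparkar day 7 library was again the lowest, and the crossbred library was higher at day 7 than at day 0. The share of detected genes above TLR4 went from 6.87% to 13.6% between the days in Tharparkar, and from 8.76% to 6.91% in crossbred.

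TLR2, the lipoprotein receptor, was the least abundant of the 3 per length in the libraries other than Tharparkar at day 7, where it was not separated from CD14 beyond counting error. It stood at 36.50 and 36.77 TPM in crossbred at day 0, and at 69.30 and 69.56 TPM at day 7. In Tharparkar it stood at 62.91 and 62.45 TPM at day 0, and at 35.69 and 35.96 TPM at day 7. TLR2 thus had 2 low libraries, crossbred at day 0 and Tharparkar at day 7, where CD14 and TLR4 had 1.

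**Figure D1:**
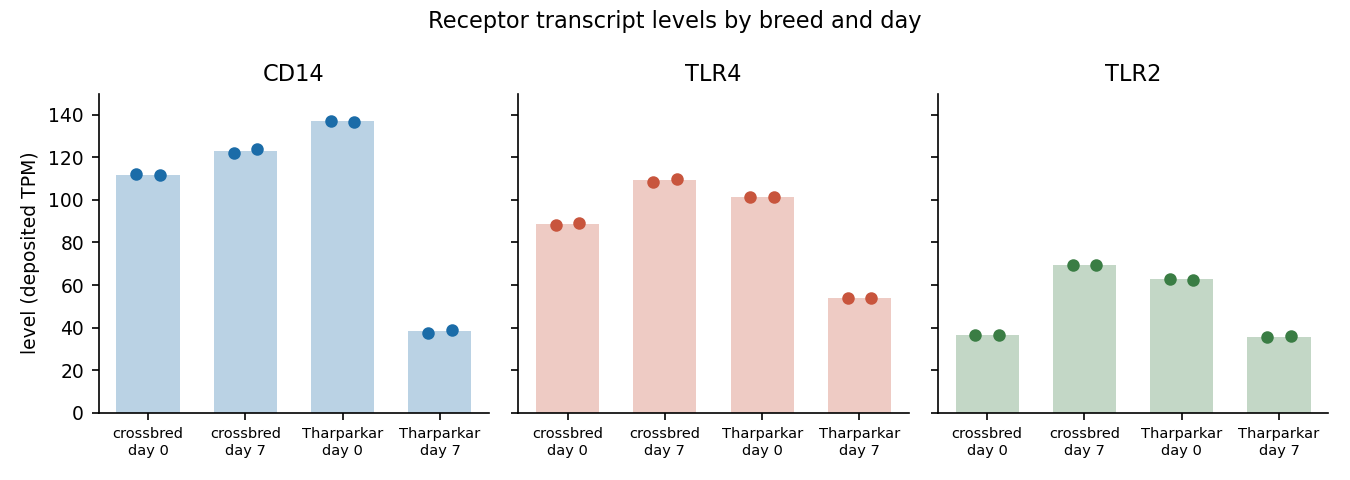
Level of CD14, TLR4 and TLR2 in deposited TPM (vertical axis, from 0) in the 4 breed and day groups. Points are the 2 files of a group, which count as 1 library, and bars are their mean. CD14 is at 38.37 TPM in Tharparkar at day 7 and at 111.9 TPM or more elsewhere, while TLR2 is low both in crossbred at day 0 (36.64 TPM) and in Tharparkar at day 7 (35.83 TPM).

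Differences between libraries were computed as log2 fold changes of CPM (counts per 1000000 counts) after TMM scaling, which allows for differences in the make-up of the libraries. A difference of 1 log2 unit or more was used as the mark for counting genes. In Tharparkar all 3 receptors were lower at day 7 than at day 0. CD14 went from 387.1 to 102.5 CPM, a log2 fold change of -1.91 (-2.06 to -1.78), or 3.77-fold lower. TLR4 went from 386.4 to 193.9 CPM, a log2 fold change of -0.99 (-1.10 to -0.89). TLR2 went from 232.3 to 125.5 CPM, a log2 fold change of -0.89 (-1.02 to -0.75).

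By this mark 1 of the 3 receptors, CD14, was lower in Tharparkar at day 7, where 4.53% of 11711 genes were; TLR4 fell just short of it. CD14 had the 74th lowest change of the 11711 genes, TLR4 the 539th and TLR2 the 688th. The median change was -0.99 over the 3 receptors and -0.01 over all genes. Among the 1680 genes with a mean of at least 100 CPM, a level that all 3 receptors exceed, 2.86% were lower by the mark. The Tharparkar day 7 library is also the shallowest, and the part of depth in the result was not tested. The CD14 value stayed between -1.94 and -1.81 in the 18 alternative computations, which include other ways of scaling the libraries. Those that leave out a file could hardly move it, since the files of a group are near copies.

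In crossbred cattle the day 7 changes of the 3 receptors differed in size. TLR2 went from 114.5 CPM at day 0 to 203.4 CPM at day 7, a log2 fold change of 0.83 (0.72 to 0.94), or 1.77-fold higher. TLR4 went from 285.4 to 329.5 CPM, a log2 fold change of 0.21 (0.13 to 0.29), which was 0.32 with total counts or FPKM and 0.30 with TPM. CD14 was at 266.8 and 274.4 CPM, a log2 fold change of 0.04 with a counting interval that includes 0 (-0.04 to 0.12). This depends on the scaling: the CD14 value was 0.15 with total counts or FPKM and 0.13 with TPM, above the upper limit of that interval. With TMM scaling the CD14 transcript was thus nearly level while those of both Toll-like receptors were higher. By the mark of 1 log2 unit 0 of the 3 receptors were higher and 0 lower, where 7.49% of all genes were higher and 5.35% lower. Of all genes, 10.6% had a higher change than TLR2, 36.4% than TLR4 and 47.5% than CD14, which puts CD14 near the middle of the genes.

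**Figure D2:**
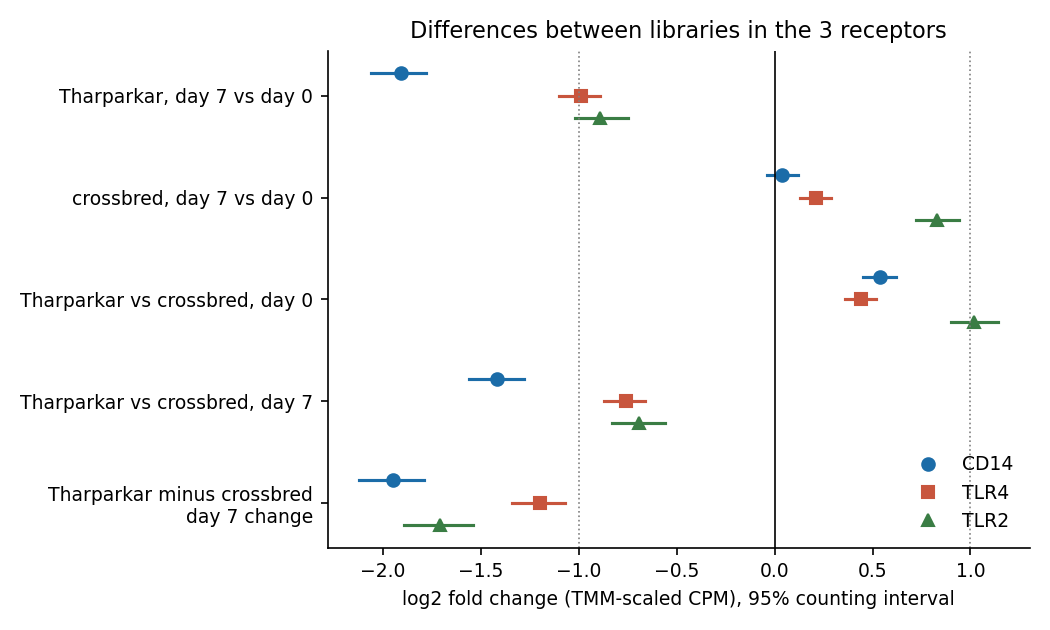
Log2 fold change of TMM-scaled CPM (horizontal axis) for CD14 (circles), TLR4 (squares) and TLR2 (triangles) in the 5 comparisons, with lines for the 95% counting interval and dotted lines at 1 log2 unit. All 3 receptors lie below 0 in Tharparkar at day 7 against day 0, with CD14 at -1.91, and at or above 0 in crossbred, with TLR2 at 0.83.

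The series asks whether the breeds differ in their response to heat, which for these genes is the difference between the 2 day 7 changes. This difference, Tharparkar minus crossbred, was -1.95 for CD14 (-2.12 to -1.79), -1.71 for TLR2 (-1.89 to -1.54) and -1.20 for TLR4 (-1.34 to -1.07) on the log2 scale. All 3 receptors were lower by at least 1 log2 unit, as were 15.1% of the 11711 genes, and 10.2% of those with a mean of at least 100 CPM. The values came about differently. For CD14 nearly all of the difference lay in the Tharparkar libraries, while for TLR2 the changes in both breeds were of like size and opposite sign. By sign alone, all 3 receptors were lower at day 7 in Tharparkar and higher in crossbred, as were 32.2% of all genes. With 1 library per group the difference between the breeds has no test.

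**Figure D3:**
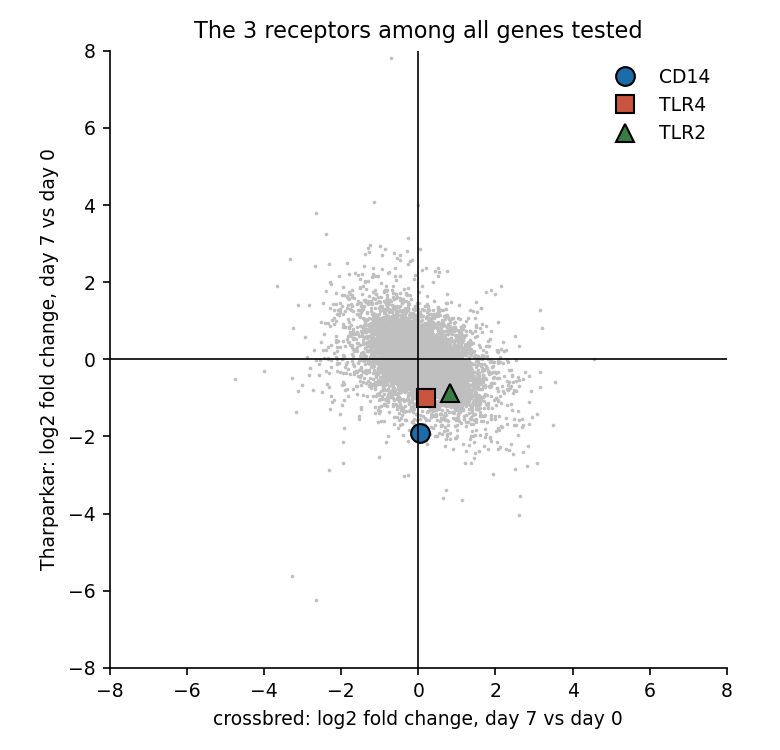
Log2 fold change from day 0 to day 7 in crossbred (horizontal axis) and Tharparkar (vertical axis) for the 11711 genes tested (grey points), with CD14 (circle), TLR4 (square) and TLR2 (triangle) marked. CD14 lies at 0.04 and -1.91, at the lower edge of the cloud and close to the vertical line, and TLR2 lies at 0.83 and -0.89.

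Before heat, all 3 receptors were higher in Tharparkar than in crossbred. The log2 difference was 1.02 for TLR2 (0.90 to 1.14), 0.54 for CD14 (0.45 to 0.62) and 0.44 for TLR4 (0.36 to 0.52). The 1 receptor past 1 log2 unit was TLR2, where 3.1% of all genes were higher in Tharparkar by that much, and 1.85% of those with at least 100 CPM. This call depends on the scaling: TLR2 differed by 0.90 with total counts, 0.88 with FPKM and 0.76 with TPM. With TPM the difference was 0.29 for CD14 and 0.19 for TLR4, both below their counting intervals.

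At day 7 all 3 receptors were lower in Tharparkar than in crossbred. CD14 differed by -1.42 on the log2 scale (-1.56 to -1.28), or 2.67-fold. TLR4 differed by -0.76 (-0.87 to -0.66) and TLR2 by -0.69 (-0.83 to -0.56). By the mark of 1 log2 unit CD14 was lower in Tharparkar, as were 9.79% of all genes and 6.43% of those with at least 100 CPM. TLR4 reached -1.01 with TPM. The breed comparison of each day shares its libraries with the day 7 changes, so its values are no separate evidence.

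The order of the libraries was read from TMM-scaled CPM. For CD14 it was Tharparkar at day 0, crossbred at day 7, crossbred at day 0 and Tharparkar at day 7, and with this scaling the 2 crossbred libraries did not differ beyond counting error. TLR4 had the same order, and each neighbour differed beyond counting error, by 0.23, 0.21 and 0.56 log2 units going down. For TLR2 the order was Tharparkar at day 0, crossbred at day 7, Tharparkar at day 7 and crossbred at day 0, with the last 2 apart by 0.13 (-0.01 to 0.28). In TPM, crossbred at day 7 came above Tharparkar at day 0 for TLR4 and TLR2, and Tharparkar at day 7 below crossbred at day 0 for TLR2. As a share of all counts, TLR4 was at 0.0359% in Tharparkar at day 0 and 0.036% in crossbred at day 7. TLR2 was at 0.0216% and 0.0222%, so the order of these libraries depends on the scaling for both Toll-like receptors. The summed CPM of the 3 receptors was 1006 in Tharparkar at day 0, 807.2 in crossbred at day 7, 666.8 in crossbred at day 0 and 422 in Tharparkar at day 7. The summed TPM put the first 2 level, at 300.9 and 301.5, ahead of 237.2 and 127.9.

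Ratios between the receptors within 1 library do not depend on the scaling between libraries. They were taken from counts per kilobase of effective length. CD14 stood at 1.35 times TLR4 (1.28 to 1.43) in Tharparkar at day 0 and at 0.714 times (0.642 to 0.796) at day 7. In crossbred this ratio was 1.26 (1.19 to 1.34) at day 0 and 1.12 (1.06 to 1.19) at day 7. Tharparkar at day 7 was thus the 1 library in which the LPS carrier CD14 was less abundant than the LPS receptor TLR4.

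CD14 stood at 3.05 times TLR2 (2.83 to 3.29) in crossbred at day 0 and at 1.77 times (1.66 to 1.88) at day 7. In Tharparkar the ratio was 2.19 (2.05 to 2.33) at day 0 and 1.07 (0.953 to 1.21) at day 7. The CD14 to TLR2 ratio was therefore lower at day 7 in both breeds, by a log2 change of -1.03 (-1.22 to -0.83) in Tharparkar and -0.79 (-0.93 to -0.65) in crossbred. The CD14 to TLR4 ratio was also lower at day 7 in both, by -0.92 (-1.10 to -0.74) in Tharparkar and -0.17 (-0.28 to -0.05) in crossbred. Relative to either Toll-like receptor there was less CD14 transcript at day 7 in both breeds. The levels behind this differed: in Tharparkar all 3 receptors were lower at day 7 and CD14 most, and in crossbred, with TMM scaling, CD14 was nearly level while TLR2 was higher.

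The TLR4 to TLR2 ratio was 2.42 (2.25 to 2.61) in crossbred at day 0, the highest of the 4 libraries. It was 1.57 in crossbred at day 7, 1.62 in Tharparkar at day 0 and 1.5 in Tharparkar at day 7. Between the days in Tharparkar it differed by a log2 change of -0.11, with an interval that includes 0 (-0.28 to 0.07). In crossbred it differed by -0.62 (-0.76 to -0.48). In Tharparkar the counting interval thus leaves room for an equal change of both Toll-like receptors, while the CD14 difference was larger than either.

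**Figure D4:**
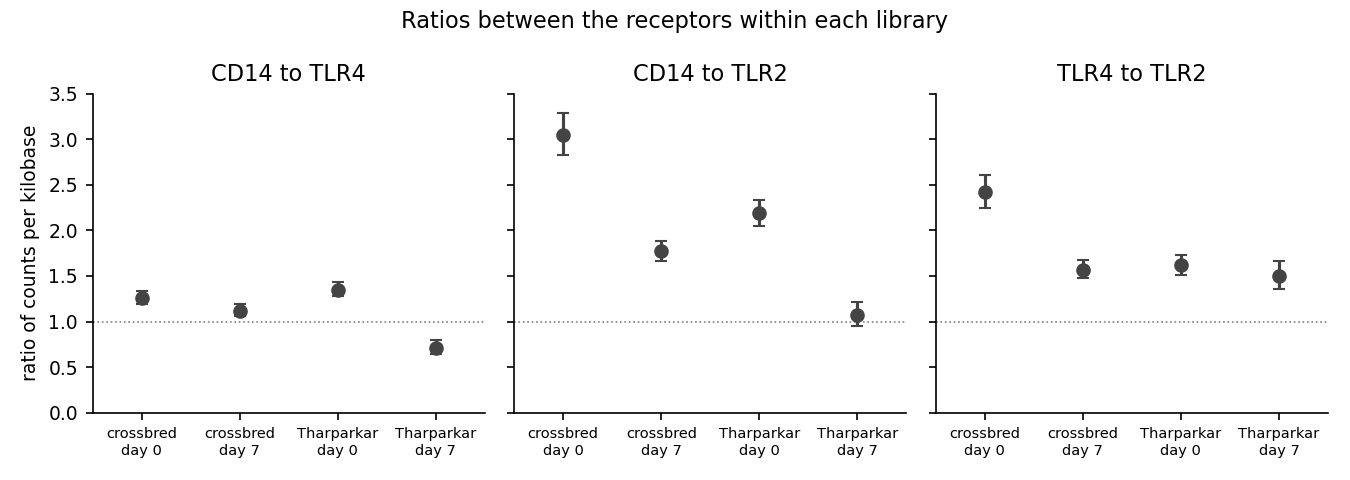
Ratio of counts per kilobase between pairs of the receptors (vertical axis, from 0) in each of the 4 libraries, with 95% counting intervals and a dotted line at 1. CD14 to TLR4 is at 0.714 in Tharparkar at day 7 and above 1 in the other libraries, and TLR4 to TLR2 is at 2.42 in crossbred at day 0 and between 1.5 and 1.62 elsewhere.

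The likeness of patterns was measured as the root mean square difference of centred log2 CPM over the 4 libraries, with the 7768 other genes that had a mean of at least 10 CPM as candidates. TLR4 was the 66th nearest gene to CD14, at a distance of 0.359, and TLR2 was the 686th, at 0.548. Seen from the other side, CD14 was only the 2459th nearest gene to TLR4 and the 5381st nearest to TLR2. TLR4 and TLR2 were 0.276 apart, with TLR4 the 618th nearest gene to TLR2 and TLR2 the 1014th nearest to TLR4. The median distance over the candidates was 0.738 from CD14, 0.473 from TLR2 and 0.420 from TLR4, so CD14 lay farthest from the candidates by this measure. The distance takes in the size of the differences between libraries as well as their shape, so it does not tell how common a shape is. The nearest identifier to CD14 was ENSBTAG00000007624, at 0.154. It had 22.1 and 26.9 CPM in crossbred at days 0 and 7, and 29.1 and 9.57 CPM in Tharparkar. The nearest to TLR2 was ENSBTAG00000003959, at 0.0139, with 15.3 and 28.0 CPM in crossbred and 31.2 and 17.0 CPM in Tharparkar. Its mean counts were 132.5 and 242.5 in crossbred and 194.5 and 86 in Tharparkar. The nearest to TLR4 was ENSBTAG00000044106, at 0.0235, with mean counts of 113 and 127 in crossbred and 108 and 42.5 in Tharparkar. No counting interval was computed for the distances, so which gene is nearest was not settled beyond counting error. The files give these identifiers without names, and 4 libraries describe a pattern only coarsely.

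The deposited gene models were 2790 bases long for CD14, 3716 for TLR4 and 3613 for TLR2, each with 1 transcript in the files. The RefSeq gene table of the assembly ARS-UCD2.0 lists each of the 3 symbols as 1 protein-coding gene, with 2 transcripts for CD14, 1 for TLR4 and 6 for TLR2, so the files do not resolve isoforms. The build behind the files is not given in the sources used here, and no position is stated. The counts of CD14 and TLR4 were whole numbers in all 8 files, to within 0.005. Those of TLR2 were not whole in 5 of 8 files, as happens when reads are shared out between similar genes. The distance from a whole number was at most 0.3 counts. Rounding limits this distance whatever the number of shared reads, so how many TLR2 reads were shared out was not measured. The mean counts of TLR2 were 991 to 1763 in the 3 deeper libraries and 636 in Tharparkar at day 7.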

How the data were processed

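RNA sequencing covered 8 files in 4 groups. Per the submitters' processing notes, Bowtie2 and RSEM were used; versions, genome build and annotation are not given in the sources used here. Per the file headers, the deposited values are expected counts (estimated reads per gene), TPM and FPKM, with gene and effective length in bases. The members and lists were chosen with earlier results of these data known.

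The 2 files of a group were compared by a chi-square per gene over genes with at least 20 counts, and files with a median ratio under 1.5 were averaged as 1 library. Mean expected counts were filtered with filterByExpr (11711 genes left), scaled by TMM and turned into log2 CPM with a prior count of 2, using edgeR 4.0.16 in R 4.3.3. Intervals are exact: Clopper-Pearson for 2 libraries, conditional odds ratio for 4 counts. For the edgeR test used as an alternative, expected counts were rounded. The scripts were tested on simulated data. Named genes were the 3 receptors and the 1 nearest pattern for each. The gene table gives 0 Ensembl identifiers, so lists of blood cell markers and Toll-like receptor pathway genes, written as symbols, were not evaluated and the mononuclear label was not checked.

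Alternatives were DESeq2 1.42.0 size factors, total counts, log2(TPM + 1), log2(FPKM + 1), a prior count of 0.5, no filter, a mean CPM of at least 10, scaling without the 100 most abundant genes, leaving out each file, and, with each file taken as a replicate, the quasi-likelihood test of edgeR. A mean CPM of at least 100 was added after seeing the data. Log2(TPM + 1) and log2(FPKM + 1) understate changes of low genes.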

Additional observations from a re-analysis of the deposited data

Results flagged for a closer look

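For each receptor, the 2 files of Tharparkar were lower at day 7 and those of crossbred higher, and the difference between the breeds was not tested. The files of a group are near copies that count as 1 library, so their agreement repeats 1 difference and adds no support. The difference, Tharparkar minus crossbred, was -1.95 log2 units for CD14, -1.71 for TLR2 and -1.20 for TLR4. For CD14 the crossbred side is within counting error with TMM scaling: its files differed by 0.03 to 0.05 log2 units between the days, with a counting interval of -0.04 to 0.12. It was 0.13 with TPM and 0.15 with total counts or FPKM, above that interval.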

How the results depend on the processing

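All 15 differences kept their sign under each of the 18 alternatives. Those that leave out a file, or take the files as replicates, reuse near copies and could hardly turn a sign. The cause was not tested for any shift, except that filters change which genes are counted. Values per gene are log2 differences.

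With total counts, TPM and FPKM, in that order, the change in crossbred was 0.15, 0.13 and 0.15 for CD14 and 0.32, 0.30 and 0.32 for TLR4. Tharparkar against crossbred at day 0 was 0.42, 0.29 and 0.42 for CD14, 0.90, 0.76 and 0.88 for TLR2, and 0.32, 0.19 and 0.32 for TLR4. At day 7 it was -1.58, -1.65 and -1.56 for CD14, -0.86, -0.94 and -0.84 for TLR2, and -0.93, -1.01 and -0.92 for TLR4. Total counts moved the median of all genes by 0.11 in crossbred, by -0.12 between breeds at day 0 and by -0.16 at day 7. TLR4 in Tharparkar, at -0.99, reached -1 with no filter. Leaving out each file in turn gave -1.94 to -1.89 for CD14 in Tharparkar, and moved no rounded receptor value by more than 0.03.

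Counts of all genes past 1 log2 unit moved as follows. With TPM and FPKM, Tharparkar had 253 and 243 higher and 190 and 200 lower, crossbred 308 and 283 lower, the breeds at day 0 differed by 97 and 134 higher and, with FPKM, 277 lower, and at day 7 by 209 and 249 higher. With no filter, Tharparkar had 746 higher and 878 lower, and the breeds at day 0 differed by 581 and 787. With a mean CPM of at least 10 (and at least 100), higher and lower genes were 91 and 189 (15 and 48) in Tharparkar, 370 and 203 (60 and 31) in crossbred, 624 and 932 (122 and 172) for the difference of changes, 123 and 98 (31 and 17) between breeds at day 0, and 185 and 523 (26 and 108) at day 7.

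edgeR's test with the files as replicates compares libraries, not conditions, and calls far more genes at an adjusted p under 0.05. Without and with the replicate block, it called 2777 and 2779 higher and 2798 and 2801 lower in Tharparkar, 3878 and 3881 higher and 3808 and 3811 lower in crossbred, 3655 and 3658 higher and 3679 and 3680 lower for the difference, 3030 and 3033 higher and 2935 and 2940 lower between breeds at day 0, and 3787 and 3790 higher and 3638 and 3637 lower at day 7. The labels give the files of a group only a replicate number. Correlations of the file differences between groups were small, from -0.0662 to 0.117 over 10204 genes, and were not tested. With the block CD14 in Tharparkar was -1.92.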
